A study of Mus musculus with 13 samples.

Results

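The 1013 regions described here had a lower mean of 5-hydroxymethylcytosine (5hmC) in wild-type knee cartilage after joint surgery than after a sham operation. Their mean after the same surgery was higher in mutant cartilage. Such a lower mean is called a loss below, and every sham library lay above every wild-type surgery library in 389 of the regions. They were selected on the measured values themselves. A region entered if its mean in WT DMM was below that in WT sham and if it overlapped, by 1 base or more, a region whose mean in MUT DMM was above that in WT DMM. On chromosomes 1 to 19 the authors' table of WT DMM against WT sham lists 41905 regions, of which 2628 were lower in WT DMM, and the 1013 make up 38.5% of these. The other 1615 losses are used below as the set most like them. The same WT DMM libraries enter both comparisons, so a low value there makes a loss in one and a rise in the other at once. The folds and overlaps of these comparisons are therefore given as a description, without a test.

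5hmC is the oxidised form of 5-methylcytosine that the TET enzymes make, TET1 among them. It is a step on the way to removal of the methyl mark and is also a stable mark of gene bodies, enhancers and the edges of active promoters. Chondrocytes, the cells of cartilage, carry it at many genes, and its redistribution in osteoarthritis is the setting of the study, whose title names the role of TET1 in it.

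DNA came from knee cartilage of male mice of the strain B6;129S4, taken 6 weeks after surgery, and 5hmC was read at CCGG sites, the target of the enzyme MspI. The groups used are WT sham (TET1+/+, joint opened only), WT DMM (TET1+/+, destabilisation of the medial meniscus) and MUT DMM (labelled TET-/-, same operation). All groups share the strain and sex, and the labels give an age of 4 to 6 months in one field and 3 to 4 months in another. The labels put each control on the opposite leg, describe the DMM operation as removal of the medial meniscus and do not give the mutant allele or the cells in which it acts. The MUT sham libraries and the control made without glucosyltransferase were left aside (not analysed here), and the background of the assay at these regions was therefore not measured. In bulk tissue, fewer cells that carry a mark and less of the mark per cell cannot be told apart.

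Levels are normalized counts as the authors deposited them, and are compared only within a table, because each table scaled the libraries anew. Each wild-type group had 3 libraries, numbered by their order within a cell of the table, and MUT DMM had 2 distinct libraries, a deeper and a shallower, because a pair of its 3 deposited entries was identical. In each library at least 99.9955% of values were whole multiples of 1 step, within 0.02 normalized counts, which gives the reads behind them. The sham libraries held 563233 to 2187392 reads in the listed regions of the first table. WT DMM held 4726, 436852 and 925241, so the first is called near-empty below, and a single read there came to 15.7 normalized counts. In the second table (MUT DMM against WT DMM) a read came to 9.56 in the near-empty library and to 3.55 in the shallower MUT DMM library.

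The 2 entries that overlap need not hold the same fragments, since each table drew its own bounds. The WT DMM reads, summed over the 3 libraries, differed by at most 10% between the tables in 420 of the 1013 regions (41.5%) and by 2 times or more in 167 (16.5%). Among the 420 regions with like reads the median folds were 1.92 for sham over WT DMM and 1.96 for MUT DMM over WT DMM, close to those of the whole set given further on. Where a region named below had unlike reads in the tables, its rise and its loss were measured on different fragments. This held for 42 of the 60 promoter regions, and for 15 of the 26 regions at genes of the functional lists.

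Where a promoter was involved, the DNA can be shown. RefSeq promoter windows (250 bases before to 50 after a gene's start, build mm10, RefSeq assembly GRCm38.p6) were overlapped by 60 of the 1013 regions. Below are the windows at the 8 such regions with the highest sham mean, 1 window for each, and those of the 3 genes Cux2, Hoxd11 and Fzd1, chosen after their values were seen as the promoter genes on the functional lists used further on. Each is printed 5′ to 3′ on the gene's strand in lower case, with CCGG, the only motif searched, in capitals. CCGG reads the same on both strands, and a copy in the window is where a read can begin, not proof that it did.
Amd1: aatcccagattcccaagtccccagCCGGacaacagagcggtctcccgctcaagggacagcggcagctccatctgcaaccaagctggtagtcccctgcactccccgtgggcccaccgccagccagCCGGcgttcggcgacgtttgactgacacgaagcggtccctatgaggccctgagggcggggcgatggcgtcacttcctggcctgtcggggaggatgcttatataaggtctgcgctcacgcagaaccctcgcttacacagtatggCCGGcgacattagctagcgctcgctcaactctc
Amd2: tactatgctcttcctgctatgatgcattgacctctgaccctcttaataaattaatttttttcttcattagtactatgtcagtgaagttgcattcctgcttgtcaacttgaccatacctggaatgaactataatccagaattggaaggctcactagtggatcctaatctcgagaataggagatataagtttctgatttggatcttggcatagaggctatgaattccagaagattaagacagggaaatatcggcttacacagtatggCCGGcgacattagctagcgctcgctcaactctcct
Gm3512: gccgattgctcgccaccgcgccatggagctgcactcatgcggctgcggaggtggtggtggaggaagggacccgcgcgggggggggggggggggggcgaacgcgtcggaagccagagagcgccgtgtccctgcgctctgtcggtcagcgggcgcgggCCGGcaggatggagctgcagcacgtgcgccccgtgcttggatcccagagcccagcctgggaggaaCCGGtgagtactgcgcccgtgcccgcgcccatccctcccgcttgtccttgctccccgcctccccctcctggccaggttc
Gm3696: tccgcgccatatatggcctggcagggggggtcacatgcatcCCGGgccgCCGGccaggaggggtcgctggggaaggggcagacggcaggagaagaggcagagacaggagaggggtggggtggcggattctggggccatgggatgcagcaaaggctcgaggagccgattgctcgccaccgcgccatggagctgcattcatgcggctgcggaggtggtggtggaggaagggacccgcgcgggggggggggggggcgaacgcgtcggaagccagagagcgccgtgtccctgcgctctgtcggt
Tmem267: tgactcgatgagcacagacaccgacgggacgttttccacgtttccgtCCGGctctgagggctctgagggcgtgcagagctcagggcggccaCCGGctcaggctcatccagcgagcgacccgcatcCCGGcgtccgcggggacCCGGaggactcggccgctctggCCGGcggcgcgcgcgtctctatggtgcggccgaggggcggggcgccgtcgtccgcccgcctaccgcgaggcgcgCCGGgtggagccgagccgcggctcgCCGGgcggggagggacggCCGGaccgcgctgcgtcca
Srp54b: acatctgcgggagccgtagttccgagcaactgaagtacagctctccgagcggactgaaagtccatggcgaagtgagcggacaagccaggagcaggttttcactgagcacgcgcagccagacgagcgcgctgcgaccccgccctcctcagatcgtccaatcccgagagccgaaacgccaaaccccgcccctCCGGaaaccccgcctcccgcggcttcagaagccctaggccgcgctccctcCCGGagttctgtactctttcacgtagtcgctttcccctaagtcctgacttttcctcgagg
Gm44478: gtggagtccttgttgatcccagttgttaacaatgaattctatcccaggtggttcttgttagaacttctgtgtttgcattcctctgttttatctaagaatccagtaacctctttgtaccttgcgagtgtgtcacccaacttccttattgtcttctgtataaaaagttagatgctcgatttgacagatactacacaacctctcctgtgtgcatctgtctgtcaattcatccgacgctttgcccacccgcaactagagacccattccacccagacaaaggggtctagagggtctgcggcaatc
Ubxn6: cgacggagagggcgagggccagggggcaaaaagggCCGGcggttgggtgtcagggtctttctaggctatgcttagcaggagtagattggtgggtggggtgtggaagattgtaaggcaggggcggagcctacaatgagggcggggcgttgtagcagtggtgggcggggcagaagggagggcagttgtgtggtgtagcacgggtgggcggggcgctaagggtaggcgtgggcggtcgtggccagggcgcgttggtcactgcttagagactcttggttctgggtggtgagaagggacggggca
Cux2: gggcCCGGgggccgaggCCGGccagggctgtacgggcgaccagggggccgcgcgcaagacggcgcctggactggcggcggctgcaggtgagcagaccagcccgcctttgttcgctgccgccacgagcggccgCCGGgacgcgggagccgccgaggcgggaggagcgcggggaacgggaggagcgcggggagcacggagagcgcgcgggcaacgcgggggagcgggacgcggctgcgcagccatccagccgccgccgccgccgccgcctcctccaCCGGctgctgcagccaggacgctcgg
Hoxd11: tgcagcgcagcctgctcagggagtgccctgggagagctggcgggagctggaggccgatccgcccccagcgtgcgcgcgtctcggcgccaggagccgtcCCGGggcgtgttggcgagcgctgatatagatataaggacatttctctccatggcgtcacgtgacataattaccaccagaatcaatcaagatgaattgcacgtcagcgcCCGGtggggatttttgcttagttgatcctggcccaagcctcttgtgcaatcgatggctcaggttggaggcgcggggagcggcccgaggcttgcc
Fzd1: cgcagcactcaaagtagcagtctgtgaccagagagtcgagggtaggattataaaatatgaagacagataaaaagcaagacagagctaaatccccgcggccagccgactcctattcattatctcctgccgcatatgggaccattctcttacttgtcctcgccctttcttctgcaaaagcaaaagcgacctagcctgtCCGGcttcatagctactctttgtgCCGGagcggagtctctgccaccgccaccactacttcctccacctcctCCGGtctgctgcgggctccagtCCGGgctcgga

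On the minus strand lie the windows of Amd1 at chr10:40302139-40302438, Amd2 at chr10:35711842-35712141, Gm3512 at chr14:7174424-7174723, Gm3696 at chr14:7105454-7105753, Gm44478 at chr6:128644537-128644836, Ubxn6 at chr17:56074517-56074816, Cux2 at chr5:122049802-122050101 and Fzd1 at chr5:4758167-4758466. On the plus strand lie those of Tmem267 at chr13:119488223-119488522, Srp54b at chr12:55154854-55155153 and Hoxd11 at chr2:74682073-74682372. The Tmem267 window holds 8 copies of CCGG, the Cux2 and Fzd1 windows 4 each, and that of Amd1 3. The regions at the windows of Gm3696, Srp54b and Gm44478 are named Gm31035, Gm2436 and Gm5884 after the gene they lie in. Gm44478 has none in its window, which shares 36 bases with its region. CCGG occurred in 74 of the 77 promoter windows that overlap one of the 1013 regions (96.1%, median 3 copies), in 49 of the 55 that overlap another loss (89.1%, median 2) and in 17338 of all 32851 windows (52.8%, median 1). Since reads come from CCGG sites, the assay itself favours such windows.

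Amd1 and Amd2 both stand for S-adenosylmethionine decarboxylase, an enzyme of polyamine synthesis, and their windows share an unbroken run of 48 bases that includes the CCGG nearest to the start. At Amd1 the sham libraries stood at 201, 116 and 169.7 and WT DMM at 62.7, 111 and 64.6. At Amd2 sham stood at 192, 106 and 158 and WT DMM at 62.7, 100.05 and 60.4. In the second table Amd1 had 123 and 132 in MUT DMM against 38.2, 68.5 and 39.6 in WT DMM. Neither comparison overlapped at either gene, but the near-equal levels and shared sequence leave it uncertain which copy was read. The windows of the predicted genes Gm3512 and Gm3696 share a run of 63 bases and are uncertain in the same way. Gm31035, at the Gm3696 window, read 109, 109 and 111 in sham and 0, 140.1 and 94.8 in WT DMM, so its second WT DMM library lay above every sham library. Gm2436, at the Srp54b window, read 105, 95.9 and 100.5 and 0, 112 and 78.1, with the same order. Gm5884, at the Gm44478 window, read 87.5, 91.6 and 97.4 and 31.4, 60.03 and 34.4, then 47.5 and 60.4 in MUT DMM against 19.1, 33.9 and 20.7, and its groups did not overlap.

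The other promoters differ in how the WT DMM libraries behaved. At Ubxn6, whose product is a cofactor of the ATPase p97, sham stood at 148, 38.6 and 48.7 and WT DMM at 0, 28.02 and 22.9, and MUT DMM at 45.6 and 49.8 against 19.1, 30.1 and 27.4. The groups did not overlap, with the first sham library far above the other two, and the reads of WT DMM differed between the tables (43 and 87). At the promoter of Hoxd11, a homeobox gene that patterns the limb, sham stood at 49.97, 52.2 and 57.2 and WT DMM at 0, 65.4 and 23.9. Here the second WT DMM library lay above all sham libraries, and the lower mean came from the near-empty library at 0 and from the third. Fzd1, a Wnt receptor, had the same order, with 40.7, 40.8 and 42.4 in sham and 0, 53.4 and 15.6 in WT DMM. Cux2, a homeobox factor, had 29.5, 70.8 and 107 in sham and 0, 30.7 and 10.4 in WT DMM, and its second WT DMM library overlapped the first sham library.

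Of the 60 promoter regions, 13 kept the groups apart in both comparisons (21.7%), and 33 had the second WT DMM library above the sham mean (55.0%). Those 13 are at Amd1, Amd2, Gm44478, Ubxn6, Nsrp1, Adssl1, Rfx2, Cep250, Mapk6 with 4933433G15Rik, Ripk1 (a kinase of tumour necrosis factor signalling and cell death), Hspb1 (a small heat shock protein), Pank2 (an enzyme of coenzyme A synthesis) and Actl6a (a subunit of chromatin remodelling complexes). Without the near-empty library 56 of the 60 still met the rule.

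At Ripk1 the sham libraries read 20.8, 32.2 and 59.6 and the WT DMM libraries 0, 13.3 and 6.25, a fold of 5.75 between the means. In the second table MUT DMM read 21.8 and 14.2 and WT DMM 0, 7.52 and 4.26, a fold of 4.58. Pank2 had 38.8, 50.8 and 92.8 in sham and 31.4, 33.4 and 18.7 in WT DMM, then 54.05 and 56.9 in MUT DMM and 19.1, 36.9 and 14.00 in WT DMM. The groups did not overlap at either gene, and the gap at Pank2 was narrow (folds 2.19 and 2.38, on 45 and 74 WT DMM reads). At Hspb1 sham read 46.5, 42.9 and 43.2 and WT DMM 31.4, 12.01 and 12.5, while MUT DMM read 101 and 92.4 against 19.1, 76.7 and 52.4. Its WT DMM reads were 23 in one table and 190 in the other, so the entries hold different fragments.

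Over all 1013 regions, the median level in the first table was 78.2, 62.2 and 72.1 normalized counts in the sham libraries and 15.7, 60.0 and 41.6 in the WT DMM libraries. The plot of levels by library shows the second WT DMM library nearest to sham, but that median covers unlike regions, since the library was below the sham mean in 696 of the 1013 (68.7%) and above it in 317 (31.3%). In the second table the medians were 53.8 and 49.8 in MUT DMM and 9.56, 37.6 and 29.2 in WT DMM. The median fold of sham over WT DMM was 1.89 (quartiles 1.65 and 2.29) and that of MUT DMM over WT DMM 1.96 (quartiles 1.65 and 2.42). A fold of 2 or more was reached by 423 regions (41.8%) in the first and 468 (46.2%) in the second. In the authors' deposited tables, 956 of the regions (94.4%) had an adjusted p under 0.05 in both comparisons. The share among all listed regions was not counted. Those tables list no region with a p-value above 0.0001 in its best window, so the filter itself favours a high share. Whether the p-values for MUT DMM counted the identical pair of entries as separate libraries is not stated. The 956 are therefore a description only.

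**Figure D1:**
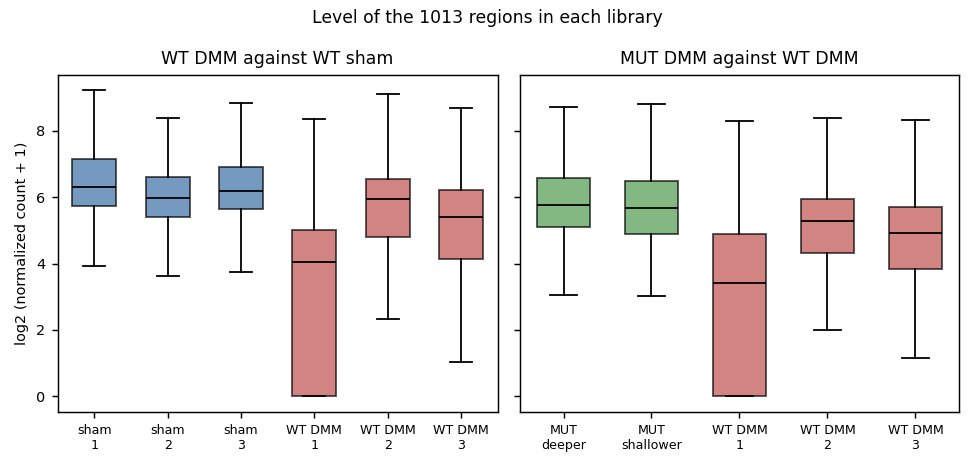
Level of the 1013 regions in each library, as log2 (normalized count + 1), on the left in WT DMM against WT sham and on the right in MUT DMM against WT DMM. Boxes span the quartiles with the median as a line, and whiskers reach 1.5 times that span. The near-empty WT DMM library has the lowest median in both panels (15.7 and 9.56 normalized counts), and the second WT DMM library, at 60.0, lies close to the sham libraries.

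The libraries of a group often differed. Every sham library lay above every WT DMM library in 389 regions (38.4%, against 1.55% of all 41905 listed regions), and both MUT DMM libraries lay above every WT DMM library in 639 (63.1%, against 23.0% of all 61594). Both held in 337 (33.3%). Since the rule used these values, nothing is read from the gap to all regions. A count of 0 in the near-empty library was found in 503 regions of the first table (49.7%) and 468 of the second (46.2%). Among those 503, the second WT DMM library stood above the sham mean in 302 (60.0%) and above every sham library in 252 (50.1%), while the third stood below every sham library in 409 (81.3%). Among the 510 where the near-empty library had reads, the second stood above the sham mean in 15 (2.94%). The libraries separated in both comparisons in 79 of the 503 (15.7%) and in 258 of the 510 (50.6%).

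Without the near-empty library 921 of the 1013 regions still met the rule (90.9%), and 437 then separated in both comparisons (43.1%). All 1013 met it without the second or the third WT DMM library, and 862 (85.1%) met it with each library of the 3 groups left out in turn. Leaving out the third WT DMM library let many more regions in, 2367 in all. The other losses rested on the near-empty library more often, being at 0 there in 1458 of 1615 (90.3%), and separated sham from WT DMM in 262 (16.2%). These differences between the sets were not tested, because both sets were cut from the same comparison.

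The regions differed by level. Split into 4 groups by sham mean, the highest group (120.8 to 695 normalized counts) had a 0 in the near-empty library in 33 of 253 (13.04%), against 176 of 253 (69.6%) at sham means of 49.4 to 72.7. The highest group separated most often in both comparisons, in 126 of 253 regions (49.8%). It lay inside genes in 89 (35.2%) and on promoter windows in 2, where the lowest group (8.70 to 49.2) had 157 of 254 (61.8%) and 32. In 225 regions (22.2%) the sham mean was below 47.0, which is what 3 reads of the near-empty library are worth, so a 0 in that library cannot show a loss at those levels.

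The region of highest level lay 3071 bases from the predicted gene Gm2389, at chr1:85057281-85058080. Sham stood at 828, 477 and 779 and WT DMM at 219, 295 and 385, and MUT DMM at 467 and 316 against 134, 166 and 225. All groups were well read and did not overlap, with folds of 2.32 and 2.24. At chr8:44234021-44234600, far from any gene, sham stood at 757, 381 and 709.7 and WT DMM at 251, 176 and 302, a fold of 2.53. MUT DMM there had 259.9 and 252 against 57.4, 52.6 and 94.4, a fold of 3.76 with no overlap, though WT DMM held 438 reads in one table and 231 in the other.

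Cmss1, which encodes a ribosomal small subunit protein homologue and overlaps Filip1l, held a region at chr16:57391601-57391840 with 600.3, 317 and 391 in sham and 251, 272 and 271 in WT DMM. MUT DMM read 667 and 430.1 there against 153, 153 and 158 in WT DMM, so its fold was 3.54 in the second table and 1.65 in the first. The remaining regions among the 15 of highest level had folds of 1.37 to 2.06 in the first table and 1.32 to 3.597 in the second. The largest of the latter, near Pdzph1, had 396 WT DMM reads in one table and 42 in the other. Of these 15, 11 kept the groups apart in both comparisons. Those that did not include 1 of the pair near the olfactory receptor gene Olfr77, where the second WT DMM library read 472 and the second sham library 459.

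The largest folds among regions without overlap came at low levels. These 15 regions, shown in the plot of single libraries, had sham means of at most 70.98 normalized counts and the near-empty library at 0 in every case. The region 526 bases from Tecpr1, a gene of autophagosome maturation, stood at 20.2, 15.7 and 15.6 in sham and 0, 0 and 1.04 in WT DMM. MUT DMM there read 15.9 and 7.11 against 0, 0 and 0.61. The folds of 49.5 and 56.6 rest on WT DMM libraries with at most 1 read. At Fbrsl1 all WT DMM libraries were at 0 in both tables, with 8.97, 8.58 and 8.54 in sham and 4.21 and 3.55 in MUT DMM. No fold is given there, because 3 reads of the near-empty library alone would come to 47.0.

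Other examples lie in genes of the cytoskeleton and of signalling. Tln1 encodes talin, which links integrins to actin, and its region at chr4:43549161-43549400 read 28.5, 12.2 and 31.6 in sham and 0, 1.33 and 3.12 in WT DMM, then 7.49 and 7.11 in MUT DMM against 0, 0.75 and 1.83. Akap9, an anchor of protein kinase A, read 19.5, 11.4 and 18.97 in sham and 0, 1.33 and 1.04 in WT DMM, then 14.97 and 24.9 against 0, 3.01 and 3.04. In both genes every WT DMM library fell below the lowest sham library, on few reads. Slc22a3, a transporter of organic cations, read 31.1, 20.7 and 35.9 in sham and 0, 0 and 6.25 in WT DMM, and 20.4 and 21.3 in MUT DMM against 0, 0 and 7.91. Its folds were 14.03 and 7.91, and its pair of MUT DMM libraries lay close together. In Akap9 and Slc22a3 the WT DMM reads rose from 2 and 6 in the first table to 9 and 13 in the second, so the entries differ. Prkg1, the kinase of cyclic GMP signalling, read 178, 15.02 and 19.8 in sham, so its fold of 10.9 came mostly from the first sham library.

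**Figure D2:**
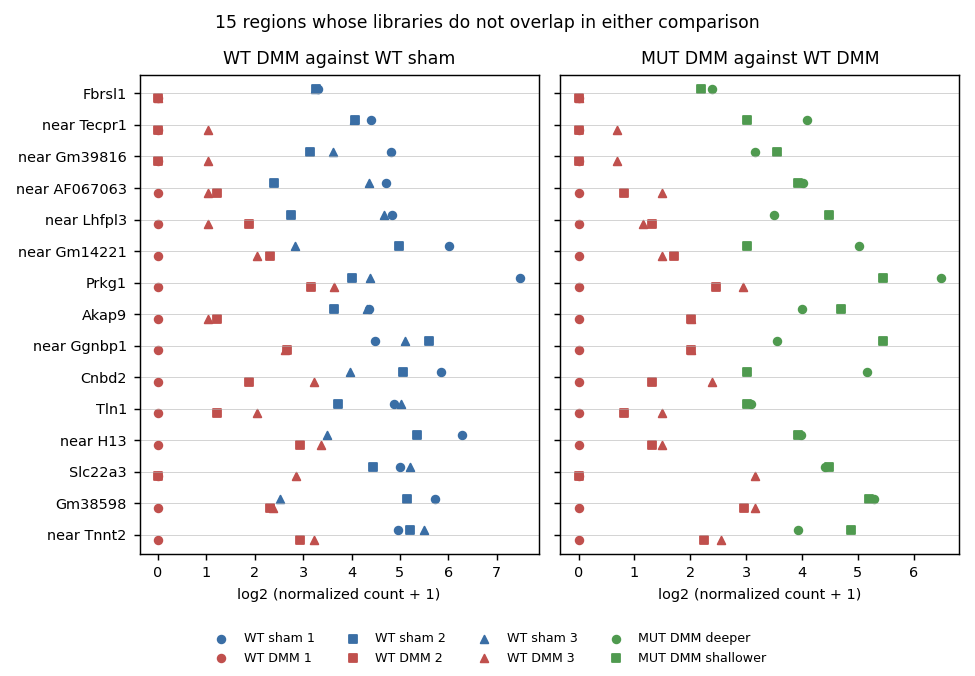
Level in each library, as log2 (normalized count + 1), of the 15 regions with the largest folds among those whose libraries did not overlap in either comparison (left, WT sham in blue and WT DMM in red; right, MUT DMM in green and WT DMM in red). Each point is 1 library, and the first WT DMM library sits at 0 in all 15 regions of both panels.

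A small group followed the first sham library. In 48 regions (4.74%) that library stood at least 4 times above both others. The second did so in 0 regions and the third in 2. Over the 48, the median was 174 in the first sham library, 15.4 in the second and 17.3 in the third, while MUT DMM had medians of 84.7 and 92.4 and WT DMM 19.1, 17.3 and 14.6 in the second table. Both MUT DMM libraries lay above every WT DMM library in 42 of the 48 (87.5%), whereas sham libraries 2 and 3 were both at or below the highest WT DMM library in 39 (81.2%). In some of the 39 that highest library was the near-empty one, on few reads. Near Rps15a-ps1, sham libraries 2 and 3 read 14.3 and 16.4 and WT DMM 31.4 (2 reads), 5.34 and 4.17. How many of the 39 hold without the near-empty library was not counted. The first sham library is high here by the choice of the 48, and the MUT DMM mean is above WT DMM by the rule. These counts are therefore a description, and whether MUT DMM follows the first sham library was not tested. Among the other losses the first sham library stood at least 4 times above both others in 351 of 1615 (21.7%), and MUT DMM was not counted there. Some of the 48 had near-equal levels in every library, so they need not be separate observations. In Gm52774 and near Gm31201, for example, the first sham library held 1010 and 1005 reads.

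Regions with the smallest adjusted p in the authors' deposited tables were mostly of this kind. Parva, which encodes alpha-parvin of focal adhesions, read 272, 29.3 and 12.3 in sham and 31.4, 22.7 and 15.6 in WT DMM, then 78.6 and 99.5 in MUT DMM against 19.1, 12.8 and 9.13. Gsap, the gamma-secretase activating protein, read 274, 28.6 and 16.2 and 31.4, 30.7 and 21.9, then 80.2 and 99.5 against 19.1, 17.3 and 12.8. Plxdc2, a plexin-domain protein, read 197, 12.9 and 13.7 and 31.4, 12.01 and 14.6, then 111 and 85.3 against 19.1, 6.77 and 8.52. In each of these sham libraries 2 and 3 overlapped WT DMM, so the groups did not separate. Plcxd3 and the regions near Olfr211 and A530065N20Rik read alike, at 199 to 272 in the first sham library and 9.74 to 43.9 in the other two. Some of these levels were nearly equal across regions. The first sham library held 848 reads in Parva, 856 in Gsap and 849 near A530065N20Rik, and the shallower MUT DMM library stood at 99.5 in each. Which of these regions was read is uncertain, so the gene names are given for position only. In all 8 regions of this choice the WT DMM reads were alike in the tables.

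Several of the regions clustered. Members lay within 10 kb of another in 116 cases (11.5%), a share not counted for the other losses or for all listed regions. Chromosome 2 held 28 of the 1013 between 152.7 and 162.9 Mb, with 18 of the 27 losses in the 5 Mb bin from 155 Mb. The third sham library was the lowest of the 3 in 26 of these 28 (92.9%), against 163 of all 1013 (16.1%). At a (nonagouti), the coat colour gene that encodes agouti signalling protein, the region at chr2:155014881-155015200 read 121, 45.8 and 1.71 in sham and 0, 5.34 and 4.17 in WT DMM. MUT DMM there read 65.04 and 24.9 against 0, 3.01 and 2.44. The third sham library was thus as low as WT DMM, and of the 4 regions in this gene 1 kept the groups apart, at chr2:155027241-155027540, with 95.5, 54.4 and 50.4 against 47.03, 22.7 and 27.1. Its MUT DMM libraries read 48.2 and 49.8 and its WT DMM libraries 28.7, 14.3 and 17.6.

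On chromosome 13 between positions 116686281 and 119970020 lay 12 of the regions, and here the second sham library was the lowest in all 12 (58.6% of the whole set), and the shallower MUT DMM library stood above the deeper in 11 (34.3% of the whole set). Tmem267, which encodes a membrane protein, held 7 of them. At chr13:119597681-119597940 sham read 149, 1.43 and 159 and WT DMM 31.4, 2.67 and 4.17, then MUT DMM 0.47 and 117 against 9.56, 0.75 and 1.22 in the second table. One MUT DMM library was as low as WT DMM and the other was high, so the rise rested on 1 library. The promoter region of the same gene read 100.3, 20.7 and 185 in sham and 31.4, 22.7 and 18.7 in WT DMM, then 2.11 and 56.9 in MUT DMM against 0, 3.76 and 3.65. The regions of Tmem267 that start at 119491841 and 119605921 had nearly equal levels in every library, and which of them was read is uncertain. The lncRNA AI506816 on chromosome 5 held 4 regions, shared with the predicted gene Gm42226, of which 1 separated in both comparisons (chr5:23700281-23700660, 50.3, 25.8 and 44.4 in sham and 0, 5.34 and 7.29 in WT DMM). Its WT DMM reads were 11 in one table and 137 in the other.

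Few of the regions lay at genes of the functional lists. Of the 18 gene lists used, 12 had at least 1 gene with a region inside it or within 5 kb, and 26 regions (2.57%) were at such genes. Counted by gene, the share with a region was 3.23% in the cartilage matrix list, 5.80% in the Wnt list, 5.88% in the protease list and 6.25% among chondrogenic transcription factors, and 2.64% of all protein-coding genes on these chromosomes (546 of 20665). A 0 in the near-empty library was found in 21 of the 26 (80.8%), the second WT DMM library above the sham mean in 15 (57.7%), and 6 separated in both comparisons (23.1%). In 11 of the 26 (42.3%) the WT DMM reads were alike in the tables. The 6 that separated are Wnt5b, Nfatc2, Scx, Lhx6, Snrpn and Bcl11a. Lists are described by these counts only, and none was tested.

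In the Wnt list 4 of 69 genes had a region. Wnt5b, a ligand that acts in the growth plate, read 36.8, 53.6 and 88.9 in sham and 31.4, 29.4 and 16.7 in WT DMM, then 52.9 and 35.5 in MUT DMM against 19.1, 32.3 and 24.4. All libraries of Wnt5b had reads and the groups did not overlap, though the gaps were narrow and the WT DMM reads were 40 in one table and 85 in the other. Ror2, the receptor tyrosine kinase for Wnt5a, read 74.3, 74.4 and 79.3 in sham and 0, 86.7 and 38.5 in WT DMM. The Frizzled receptor Fzd5 read 34.9, 39.3 and 41.2 and 0, 48.03 and 18.7. In both receptors, as in Fzd1, the second WT DMM library was above all sham libraries.

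Of the cartilage matrix list 1 of 31 genes had a region, Col11a2, a chain of the type XI collagen of cartilage fibrils. It read 70.5, 62.2 and 65.96 in sham and 0, 64.03 and 56.2 in WT DMM, then 37.4 and 31.99 in MUT DMM against 0, 37.6 and 29.2. Apart from the near-empty library the values lay close together. Of the protease list 2 of 34 genes had one. Near Adamts5, the main aggrecan-cutting enzyme of mouse cartilage, sham read 44.9, 51.5 and 51.3 and WT DMM 0, 61.4 and 16.7, and in Adam19, a membrane metalloprotease, 77.5, 67.96 and 72.5 and 0, 76.04 and 43.7. Adam19 no longer met the rule without the near-empty library. At Adamts5 the second WT DMM library exceeded all sham libraries and the third fell below them.

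Among chondrogenic transcription factors, 2 of 32 had a region. Nfatc2, a calcium-regulated factor that restrains cartilage formation in adult tissue, read 72.1, 38.6 and 70.4 in sham and 15.7, 25.4 and 18.7 in WT DMM, then 37.9 and 42.6 in MUT DMM against 19.1, 21.8 and 20.7. Both comparisons were free of overlap, with folds of 3.03 and 1.96 on 38 and 65 WT DMM reads. Zbtb20, a zinc finger repressor, read 69.8, 68.7 and 74.2 and 0, 72.04 and 74.97, so its WT DMM libraries 2 and 3 lay within or above the sham range, and it did not meet the rule without the near-empty library. Bmp2, a growth factor that drives cartilage formation, was the 1 of 53 TGF-beta and BMP genes, with 57.02, 58.7 and 59.98 in sham and 0, 58.7 and 44.8 in WT DMM. MUT DMM there read 70.2 and 78.2 against 0, 70.7 and 38.96. Tnfrsf11a, the receptor RANK of osteoclasts, was the 1 of 48 inflammatory genes and read 133, 123 and 130.4 and 0, 149 and 127. It too failed the rule without the near-empty library.

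Homeobox and T-box factors had the most genes, with 7 of 78 (8.97%) beside 3 of 39 Hox genes, which share 2 regions at Hoxd11. Genes with any loss made up 17.9% and 23.1% of these lists, 31.2% of the chondrogenic transcription factors and 8.05% of all protein-coding genes. A region higher in MUT DMM than in WT DMM lay at 63 of the 78 genes, 27 of the 39 and 9180 of all 20665. These lists thus had more regions of either kind that could overlap. Lhx6, a LIM homeobox factor, read 35.2, 27.2 and 54.5 in sham and 0, 13.3 and 8.33 in WT DMM, then 35.6 and 42.6 in MUT DMM against 0, 12.03 and 9.74. Lhx6 had folds of 5.40 and 5.39 and no overlap, on 18 WT DMM reads in one table and 32 in the other, so the entries differ. Irx4 read 45.8, 50.8 and 50.2 in sham and 0, 56.03 and 15.6 in WT DMM, and the region near Six2 read 50.9, 52.9 and 45.1 and 0, 50.7 and 20.8. Tbx2, a T-box repressor, read 79.8, 80.8 and 86.6 and 0, 90.7 and 56.2. In these 3 the second WT DMM library lay among or above the sham libraries. The region near Lhx5, which lies inside the predicted gene Gm27199, and that in Cux1 had reads in all libraries. Cux1 overlapped in both comparisons and the region near Lhx5 in the second. The folds of sham over WT DMM were 1.93 near Lhx5 and 1.53 in Cux1.

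Markers of other cells that a knee dissection may hold were also among them. Scx, the tendon factor scleraxis, read 47.4, 66.5 and 94.8 in sham and 0, 32.02 and 13.5 in WT DMM, then 26.7 and 24.9 in MUT DMM against 0, 21.1 and 12.2. Scx was the 1 of 23 fibroblast and synovial lining genes, and its region, which also lies in Bop1, separated in both comparisons. The WT DMM reads there were 37 in one table and 48 in the other, so the entries differ. Bcl11a, a factor of blood cell development, read 23.7, 22.2 and 29.4 and 0, 10.7 and 0, and a region near Itgax, the integrin CD11c of dendritic cells, read 47.1, 47.2 and 53.8 and 0, 30.7 and 55.2. These are 2 of 43 blood cell genes. The muscle genes Ttn and Mybpc2, 2 of 33, overlapped between sham and WT DMM. The lists of endothelial, adipocyte and bone cell markers had none. DNA regions give no expression, so the share of other cells in the dissections was not tested. Snrpn, an imprinted gene and the 1 of 54 on that list, read 176, 119 and 251 in sham and 62.7, 98.7 and 90.6 in WT DMM, then 87.3 and 85.3 against 38.2, 53.4 and 48.1, with no overlap. No region lay at a gene of hypertrophy and mineralisation (0 of 29), of insulin, IGF and mTOR signalling (0 of 42) or of the methylation machinery (0 of 26), Tet1 included. Genes with any loss numbered 3, 6 and 3 in these lists (10.3%, 14.3% and 11.5%, against 8.05% of all protein-coding genes). Since 2.64% of all protein-coding genes had a region, 0 in lists this short says little. The same holds for the lists of endothelial, adipocyte and bone cell markers.

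**Figure D3:**
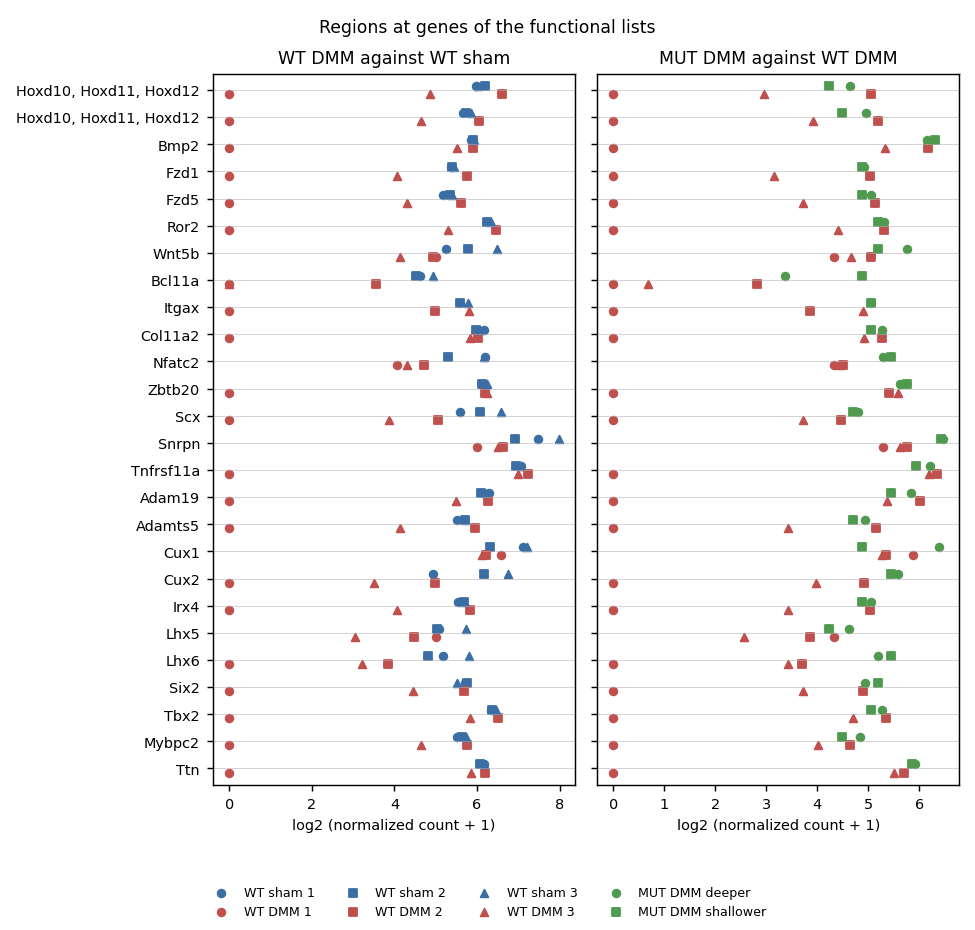
Level in each library, as log2 (normalized count + 1), of the 26 regions at genes of the functional lists (left, WT sham in blue and WT DMM in red; right, MUT DMM in green and WT DMM in red). Each point is 1 library. In the left panel 21 of the 26 regions have the near-empty WT DMM library at 0, and at genes such as Fzd1 and Irx4 the second WT DMM library lies to the right of the sham libraries.

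The regions were spread over genes and the space between them. Of the 1013 regions 516 were inside the bounds of a RefSeq gene (50.9%), 92 within 5 kb (9.08%) and 405 further away (40.0%), and 60 overlapped a promoter window (5.92%). The other losses lay inside genes in 66.0% and on promoter windows in 3.03%, and all 41905 listed regions in 51.0% and 0.888%. These shares were compared without a test, since neighbouring regions are not independent. In the genome table used, exons, introns and UTRs are not given, so a region inside a gene was not placed further. The median region was 260 bases long. Chromosome 13 had the largest share of its losses in the set, 64 of 124 (51.6%), and chromosome 9 the smallest, 40 of 133 (30.1%). A single region overlapped the hairpin of the microRNA Mir1231 on chromosome 1.

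**Figure D4:**
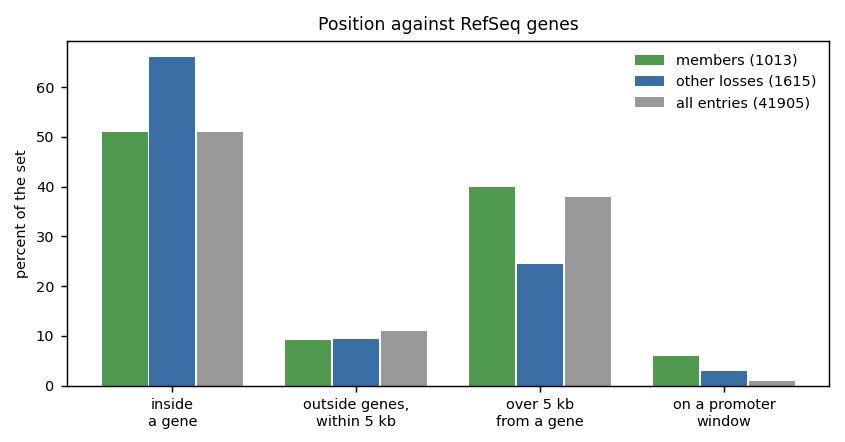
Share of regions by position against RefSeq genes, in percent of each set, for the 1013 members, the other 1615 losses and all 41905 listed regions of WT DMM against WT sham. Bars are shares without an error. Members lie inside genes in 50.9% and on promoter windows in 5.92%, where the other losses have 66.0% and 3.03%.

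The comparison that the rule did not use sets MUT DMM against WT sham, so genotype and operation change together and cannot be told apart. It is not independent, because the sham and MUT DMM libraries are those that chose the regions. Of the 1013 regions 321 (31.7%) overlapped an entry of that table, and 692 did not, which means only that the authors' table lists no entry there. MUT DMM was above sham in 272 of the 321 (84.7%) and below in 49 (15.3%), with a median ratio of 1.32. MUT DMM was above sham in 42.9% of all 67366 entries and in 57.2% of the 26459 entries of like sham level (means of 15.9 to 387). By the authors' deposited table, 265 of the 321 (82.6%) had an adjusted p under 0.05 and were higher in MUT DMM, against 42.4% of all 67366 listed regions. Whether these p-values counted the identical pair of MUT DMM entries as separate libraries is not stated either. Both MUT DMM libraries lay above every sham library in 193 (60.1%, against 32.4% of all). Of the other losses listed there, 87 of 665 (13.1%) were higher in MUT DMM.

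Zbtb20 read 116, 111 and 120.4 in sham and 152 and 142 in MUT DMM in this table, a ratio of 1.27, and Amd1 read 356, 206 and 294 and 386 and 331, a ratio of 1.26. At Zbtb20 both MUT DMM libraries lay above all sham libraries, and at Amd1 the groups overlapped. Cmss1 read 994, 513 and 635 and 2098 and 1143, a ratio of 2.27 with no overlap. Parva read 449.7, 47.5 and 19.97 and 247 and 265, so MUT DMM lay between the first sham library and the others.

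The bounds of the entries mattered for the lower cases. In 251 of the 321 (78.2%) the 3 entries overlapped one another by at least 50% of the shorter, and 229 of these were higher in MUT DMM (91.2%) and 22 lower. In the other 70, whose entries shared less, 27 were lower (38.6%). Among the 251 the MUT DMM mean was within 1.5 times of the sham mean in 168 (66.9%, against 7.54% of all entries) and 2 times above it or more in 22 (8.76%). Nothing is read from the gap to all entries. The members were chosen for sham and MUT DMM both above WT DMM, and regions unchanged between MUT DMM and sham are not listed. In 86 of the 321 (26.8%) the summed sham reads and the summed MUT DMM reads each differed by at most 10% between the tables, so about the same fragments were compared. Of these 86, 79 were higher in MUT DMM (91.9%) and 7 lower, 52 had both MUT DMM libraries above every sham library (60.5%), and the median ratio was 1.30. Cmss1, Parva, Gsap, Zbtb20 and Amd1 are among the 86.

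**Figure D5:**
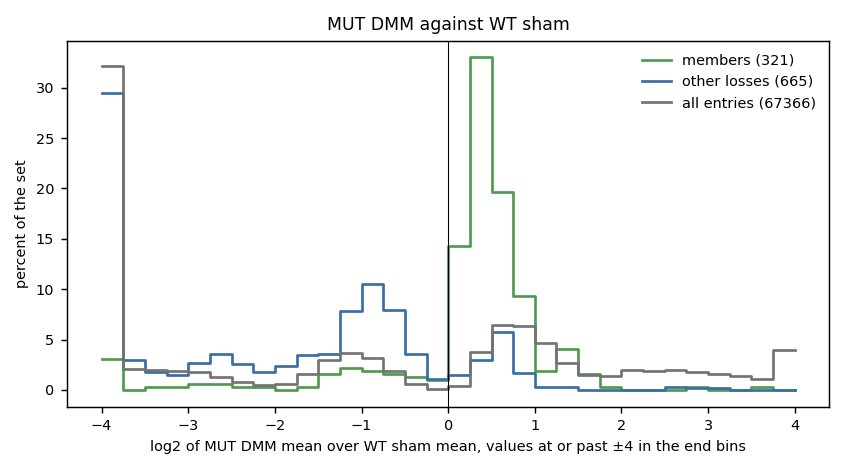
Distribution of the log2 ratio of MUT DMM mean to WT sham mean, in percent of each set per bin of 0.25, for the 321 members listed in that table, the other 665 losses and all 67366 entries. Values at or past 4 in either direction are in the end bins. Most members lie just above 0, at a median ratio of 1.32, while 29.5% of the other losses and 32.2% of all entries fall in the lowest bin. The members were chosen for MUT DMM above WT DMM.

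Limma on log2 (normalized count + 1), fitted to the whole table with adjusted p-values by Benjamini-Hochberg over its 72486 entries, called 9 of the 321 regions (2.80%, against 45.4% of all entries). All 9 were lower in MUT DMM. An unadjusted limma p under 0.05 was found in 25 of the 321 (7.79%), 11 of them higher, and in 41579 of all 72486 entries. None of the 9 rested on about the same fragments as the region itself. In Psd3 the sham libraries held 3295 reads in the region and 33 in the entry tested, in the Igh region of highest level 4812 and 122, and in Fbrsl1 90 and 30. The entry at Fbrsl1 read 6.36, 5.79 and 3.61 in sham and 0 and 0 in MUT DMM, at a log2 difference of -2.62 ± 0.35 (SE, limma adjusted p = 0.00477). Among the 86 regions with like reads limma called 0, and 1 had an unadjusted p under 0.05, higher in MUT DMM. For Cmss1 the log2 difference was 1.17 ± 0.47 (limma adjusted p = 0.0912), so its higher level in MUT DMM did not pass. The number called ranged from 0 to 53 over the settings tried. With entries under a mean of 10 left out limma called 0 in the whole table, where 9480 of 32989 entries had an unadjusted p under 0.05. Of the 321 regions 310 stayed in at that setting, 19 of them with an unadjusted p under 0.05. The shares over all 72486 entries thus compare unlike levels.

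Close to the limit of the rule the folds were small. The members with the smallest fold were a region near Gm34677, where MUT DMM was 1.16 times WT DMM, one near Gm17900 (1.22 times), Cux1 (1.24 times) and Sik1 (1.25 times), and one near Gm4115, where sham was 1.25 times WT DMM. Just outside were losses with a mutant entry below WT DMM, at 0.828 times in Cd6, 0.762 in Tns3, 0.6999 in Krt79, 0.689 in Pudp and 0.663 in Cnp. Of the 2628 losses, 1562 (59.4%) met no entry of the mutant table, 83 (3.16%) met a lower one, and 30 of the 1013 regions met a higher and a lower one. Of 21623 entries higher in MUT DMM than in WT DMM, 1016 (4.70%) overlapped one of the 1013 regions.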

How the data were processed

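The data are tables of regions from reduced representation hydroxymethylation profiling (RRHP) of mouse knee cartilage, with 13 samples in the labels. Per the labels' protocols, DNA was cut with MspI, glucosylated at 5hmC, cut again and amplified in 15 PCR cycles. Per the submitters' processing notes, reads went through HISAT2 2.1.0 on mm10 after Trim Galore 0.5.0 and bcl2fastq 2.20.0, with bedtools and SAMtools also named, and the program and test that called regions are not given in the sources used here. Per the file headers, the authors deposited 3 tables, 1 per comparison, with the normalized counts of 3 libraries joined in 1 cell (scaling not stated), their mean signal, and the p-values and adjusted p-values of each region. No region with a best-window p-value above 0.0001 is listed, so unchanged regions are absent.

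The members and the gene lists were chosen with earlier results of these data known. Cells carry no replicate number, and nothing says that libraries come from separate animals, so spread may be technical. Identical MUT DMM entries were counted once, except in the rule and in the ratios just outside it, which use the authors' means. Overlaps, folds of means and library overlap were computed in Python 3.11 (pandas), and MUT DMM against WT sham was fitted in limma with a pseudocount of 1. The fit was also tested on simulated data. Reads were recovered as whole multiples of a step, and since the cells are joined and normalized no count model was run. PCR reads without molecular identifiers are not independent molecules.

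Named regions are the 15 with the largest smaller fold among those that separate, the 15 of highest sham mean, the 8 of smallest rank of the authors' p, genes with 3 or more regions, list genes, promoter windows, and the 5 nearest the limit on each side. A region outside genes is named "near" its closest RefSeq gene (GRCm38.p6). Alternatives were overlap, p, scaling, level, pseudocount, and each library left out.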

Additional observations from a re-analysis of the deposited data

How the results depend on the processing

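The median fold of sham over WT DMM ranged from 1.71 to 2.77 over the alternatives and that of MUT DMM over WT DMM from 1.77 to 2.54; both lie above 1 by the rule itself, which each alternative applies again. The median ratio of MUT DMM to sham ranged from 1.16 to 1.40. With library sums made equal the rule found 725 regions, of which 687 are among the 1013 and 270 separated in both comparisons. With an adjusted p under 0.001 in the authors' tables the rule found 123 regions, of which 71 separated in both comparisons, and with like WT DMM reads in the tables, a setting chosen after seeing the data, 420 and 150. Leaving out single libraries gave 922 to 2367 regions, of which 342 to 685 separated, the highest values without the third WT DMM library (2367) and without the second (685). Limma called 9 regions between MUT DMM and WT sham, 24 with a pseudocount of 5, 0 without entries under a mean of 10, 53 with the repeated MUT DMM library counted 2 times, 7 to 45 without single libraries, and, chosen after seeing the data, 3 with at least 50% overlap and 0 with like reads. No paired analysis was possible because the joined cells carry no replicate number. A read of the near-empty WT DMM library is worth so much that a 0 there limits what a low WT DMM mean can show.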
